A study of Mus musculus with 9 samples.

Results

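The collagens, laminins and stromal matrix genes of the mouse eye were taken as the genes whose symbol begins with that of a collagen chain (Col and numbers), a laminin chain (Lama, Lamb, Lamc), a fibrillin (Fbn), a fibulin (Fbln) or a nidogen (Nid), together with Fn1, Lum, Kera, Dcn, Fmod, Ogn, Bgn, Sparc, Eln and Tgfbi. Of 13089 genes listed, 61 were members by this rule. They comprised 11 fibrillar collagens, 11 collagens of basement membranes and their neighbours, 12 other collagens, 11 laminins and nidogens, 7 genes for fibrillins, fibulins, elastin and fibronectin, and 8 genes for stroma proteoglycans and glycoproteins. The remaining member, Col4a3bp, has a symbol that fits the pattern but encodes a ceramide transfer protein, not a collagen, and was placed in no class. Its levels lay between 5.98 and 9.03 RPKM in A/J, 8.08 and 8.78 RPKM in BALB/c, and 8.38 and 18.78 RPKM in C57BL/6J eyes.

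Poly(A) RNA of whole eyes was sequenced from wild type female mice of 4 weeks, with 3 libraries for each of A/J, BALB/c and C57BL/6J and pooled RNA of 5 mice in each library. A/J and BALB/c are albino inbred strains and C57BL/6J is a pigmented one, and the study examined the 3 as backgrounds that differ in how fast the retina degenerates. C57BL/6J served as the strain against which the albino strains were set, and A/J was also set against BALB/c. Whether a strain's libraries were made from separate pools is not stated in the labels, so p-values reflect only library-to-library spread, part or all of which may be technical. The deposited values name no unit and were inferred to be RPKM, read numbers scaled by transcript length and by the mapped reads of the library. On that basis levels can be set side by side between genes, although the inference fitted C57BL/6J 3 less well than the other libraries. Overlap between libraries is given on the deposited values and log2 changes on scaled values, unless stated. The read depth behind the values is unknown. In bulk RNA, fewer cells of a type and less RNA per cell cannot be told apart.

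Collagens are trimers of chains wound into a triple helix. Fibrillar collagens form the banded fibrils of the cornea and sclera, in which small leucine-rich proteoglycans such as lumican and keratocan set fibril diameter and spacing, and transparency depends on that order. Type IV collagen forms sheet-like networks which, with laminins and nidogens, make up the basement membranes of the corneal epithelium, lens capsule, retina and vessels. Fibrillin microfibrils form the zonule that suspends the lens, and collagens II, IX and XI form the fibrils of the vitreous.

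The libraries did not vary equally. The first principal component over all genes held 49.1% of the variance and ran from -51.4 in A/J 2 and -42.4 in A/J 1 to 56.4 in C57BL/6J 3, with the other 6 libraries between -7.8 and 14.8. Deviations of a library from each gene's mean over the 9 libraries followed the GC content of transcripts. Spearman correlations were -0.65 in A/J 1, -0.72 in A/J 2 and 0.46 in A/J 3 across 12695 genes, which are not independent replicates. Col4a6, Fn1, Col9a1, Eln, Kera and Col2a1 are therefore also given with A/J 1 and A/J 2, the libraries of the strongest trend, left out. On the log2 scale, the median within-strain SD of the tested matrix genes was 0.25 for A/J libraries, 0.09 for BALB/c libraries and 0.33 for C57BL/6J libraries. Markers of the whole eye were present: the lens crystallin Cryaa had 18391 to 53089 RPKM, the corneal keratin Krt12 1632 to 3015 RPKM and the pigment epithelium isomerase Rpe65 56.05 to 249.88 RPKM over the 9 libraries.

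Matrix transcripts were present in every strain, and the 60 members placed in a class made up 0.468% to 0.743% of a library's summed RPKM. Member values ranged from 0.2 to 1297 RPKM, no member was at 0 in any library, and 52 of 61 members had at least 1 RPKM in all 9 libraries. The 60 members placed in a class summed to 3459, 3854 and 3132 RPKM in A/J, to 2806, 2813 and 2819 RPKM in BALB/c, and to 3801, 3908 and 2491 RPKM in C57BL/6J eyes. The A/J and BALB/c sums did not overlap, while the C57BL/6J sums spanned both. The 8 stroma proteoglycans and glycoproteins made up most of these sums, with means of 2403 ± 523 RPKM in A/J, 1786 ± 50.3 RPKM in BALB/c and 2345 ± 731 RPKM in C57BL/6J eyes (SD, n = 3 each). Fibrillar collagens followed with 482 ± 50.6 RPKM in A/J, 450 ± 37.7 RPKM in BALB/c and 436 ± 167 RPKM in C57BL/6J eyes (SD, n = 3 each). The 11 basement membrane collagens summed to 223 ± 66 RPKM in A/J, 227 ± 2.75 RPKM in BALB/c and 235 ± 49.6 RPKM in C57BL/6J eyes (SD, n = 3 each), so the class as a whole differed by less than the spread between libraries.

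Most members did not pass the test for a strain difference. The test was limma on log2(size-factor-scaled RPKM + 0.5), with Benjamini-Hochberg adjustment over the 12920 genes that had at least 1 RPKM in at least 3 libraries, and calls were made where the adjusted p lay under 0.05. Of 61 members, 60 entered it. The other was Col24a1, a minor fibrillar collagen, which had 0.75, 0.90 and 1.35 RPKM in A/J, 0.81, 0.79 and 0.83 RPKM in BALB/c and 0.62, 0.57 and 0.54 RPKM in C57BL/6J eyes. In A/J minus C57BL/6J, 2 of 60 members were called, or 3.33% beside 2.69% of all genes tested; 1 was higher and 1 lower, beside 1.08% of all genes higher and 1.62% lower. For BALB/c minus C57BL/6J, 1 of 60 was called, or 1.67% beside 3.09% of all genes; none was higher and 1 was lower, beside 1.93% higher and 1.15% lower. For A/J minus BALB/c, 2 of 60 were called, or 3.33% beside 2.48% of all genes; both were higher, beside 0.573% higher and 1.9% lower. The F test over the 3 strains called 2 of 60 members beside 4.47% of all genes. These shares of members lay near the background in each comparison, and the comparisons share libraries. The called members were Col4a6, Fn1 and Col9a1.

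**Figure D1:**
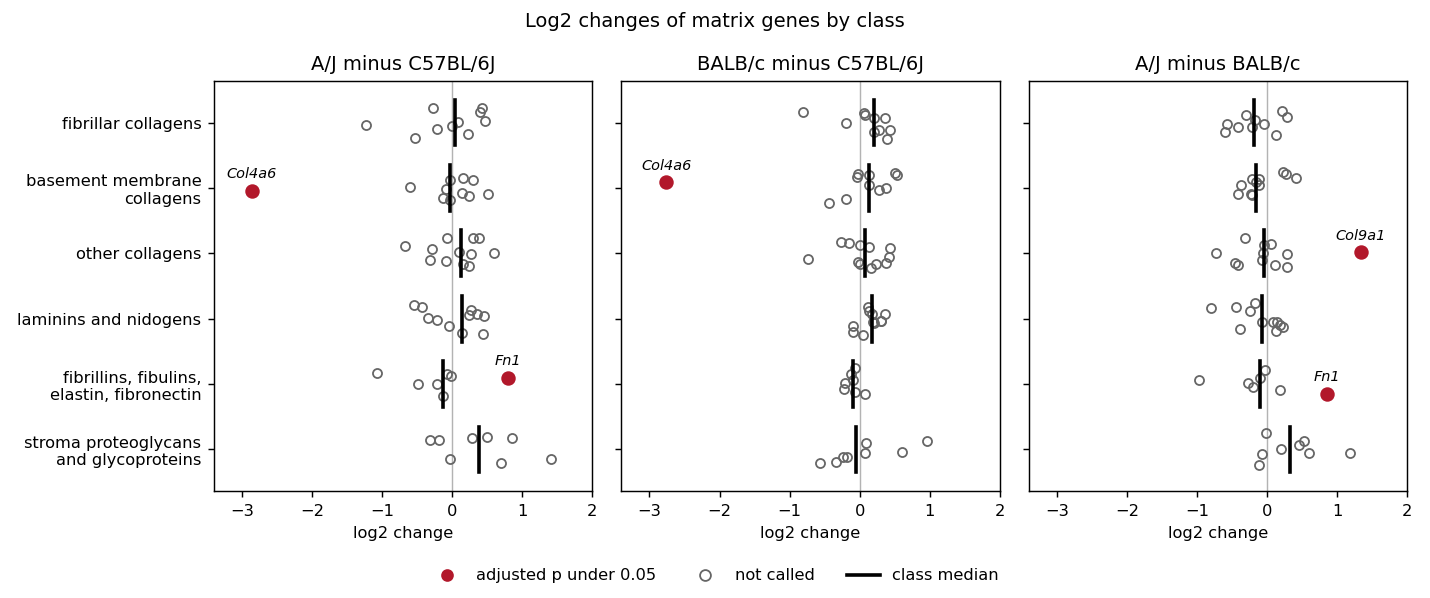
Log2 change of each tested matrix gene (horizontal axis, on the log2(scaled RPKM + 0.5) scale) by class (vertical axis), with a panel for each of the 3 pairs of strains. Filled points passed an adjusted p of 0.05 (limma), open points did not, and bars are class medians. Col4a6 stands at -2.86 and -2.76 in the 2 comparisons with C57BL/6J, Fn1 at 0.79 and 0.85 in the 2 comparisons of A/J, and Col9a1 at 1.34 in A/J minus BALB/c.

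Col4a6 encodes the alpha6 chain of type IV collagen, which assembles with the alpha5 chain in the basement membranes of stratified epithelia and smooth muscle. It had 0.20, 0.22 and 0.36 RPKM in A/J eyes, 0.29, 0.26 and 0.35 RPKM in BALB/c eyes, and 4.06, 6.27 and 6.06 RPKM in C57BL/6J eyes. All 6 libraries of the albino strains had at most 0.36 RPKM and all 3 of C57BL/6J at least 4.06 RPKM, so the groups did not overlap, while A/J and BALB/c did. The mean in C57BL/6J eyes was 21.0 times that in A/J eyes and 18.2 times that in BALB/c eyes. The log2 changes that follow are differences of log2(scaled RPKM + 0.5), so those of low genes are understated. Col4a6 was lower in A/J by a log2 change of -2.86 (SE 0.18, adjusted p = 4.8e-05, limma) and in BALB/c by -2.76 (SE 0.18, adjusted p = 4.7e-05, limma) than in C57BL/6J eyes. A/J minus BALB/c was -0.11 (SE 0.18, limma adjusted p = 0.72). Col4a6 was the only tested member that reached 1 RPKM in libraries of a single strain, and every gene listed had a mean of at least 0.997 RPKM in some strain, so a gene this low in 2 strains could be listed only if the other strain had more. Without the minimum of 1 RPKM, the A/J minus C57BL/6J change was -2.86 (limma adjusted p = 5.4e-05). Without A/J 1 and A/J 2 it was -2.7 (limma adjusted p = 0.0061). Without any one C57BL/6J library, tested with no minimum RPKM in an alternative added after seeing the data, it lay between -3.03 and -2.72 in A/J and between -2.92 and -2.61 in BALB/c.

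The other chains of type IV collagen did not follow Col4a6. Col4a5, the partner chain, had 13.86, 12.09 and 16.58 RPKM in A/J, 10.34, 9.69 and 9.86 RPKM in BALB/c, and 10.99, 13.34 and 25.19 RPKM in C57BL/6J eyes. The BALB/c libraries were the lowest in deposited RPKM but overlapped with C57BL/6J after scaling, and A/J and C57BL/6J overlapped. No comparison passed the test (limma adjusted p = 0.95 for A/J and 0.48 for BALB/c, each minus C57BL/6J, and 0.32 for A/J minus BALB/c). The ratio of Col4a6 to Col4a5 within a library, a ratio picked after the values were seen, was 0.0144 to 0.0217 in A/J eyes, 0.0268 to 0.0355 in BALB/c eyes and 0.241 to 0.47 in C57BL/6J eyes. Col4a1, which with Col4a2 forms the network found in nearly all basement membranes, had 55.11, 46.73 and 83.03 RPKM in A/J, 68.23, 67.60 and 65.60 RPKM in BALB/c, and 47.11, 68.87 and 62.10 RPKM in C57BL/6J eyes. Col4a2 had 28.79, 24.23 and 48.08 RPKM in A/J, 38.28, 42.65 and 39.18 RPKM in BALB/c, and 25.20, 38.53 and 31.44 RPKM in C57BL/6J eyes. Both chains were highest in A/J 3 among all libraries, their strains overlapped, and their ratio stayed between 0.506 and 0.631 in all 9 libraries. Col4a3 and Col4a4 join Col4a5 in the network of the lens capsule and the glomerulus. Col4a3 had 11.45, 12.39 and 10.13 RPKM in A/J, 9.59, 8.82 and 8.89 RPKM in BALB/c, and 8.30, 8.18 and 8.73 RPKM in C57BL/6J eyes. The strains did not overlap in deposited RPKM, but A/J and BALB/c did after scaling. No comparison passed the test (A/J minus C57BL/6J log2 change 0.51, SE 0.13, limma adjusted p = 0.079). After correction for GC content that change was 0.5 and passed (limma adjusted p = 0.033). Col4a4 had 4.61, 4.22 and 9.11 RPKM in A/J, 6.51, 6.17 and 6.36 RPKM in BALB/c, and 5.07, 6.56 and 8.27 RPKM in C57BL/6J eyes, with overlap in each comparison.

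**Figure D2:**
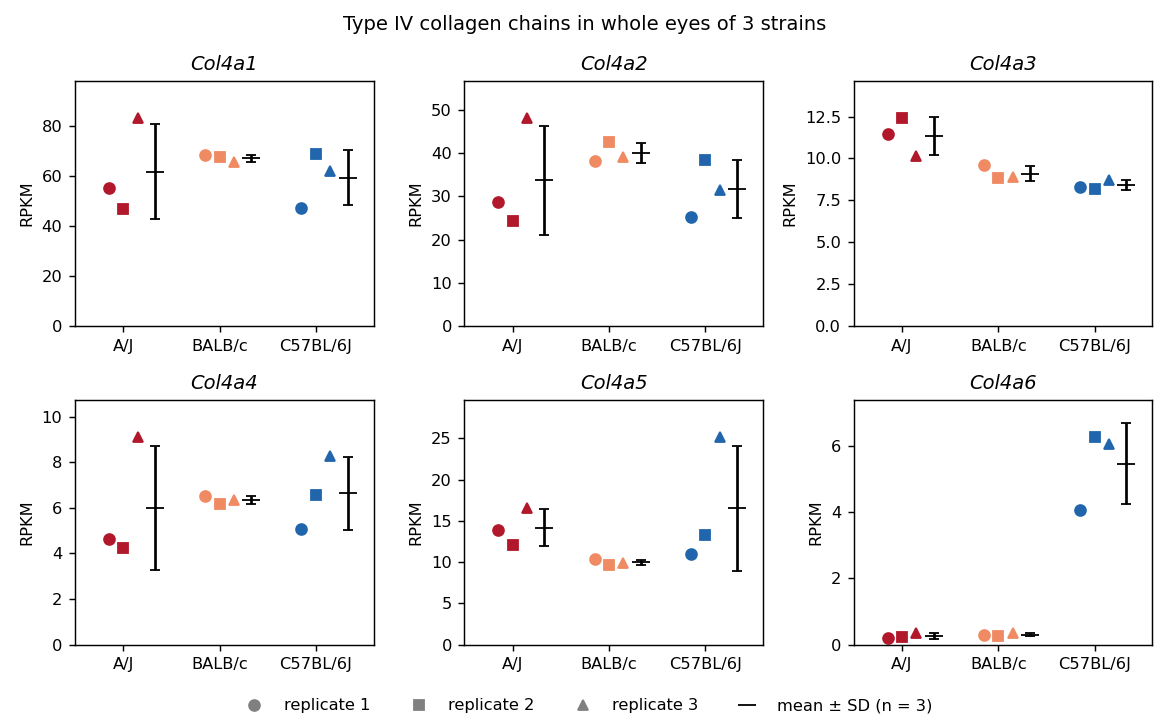
Deposited RPKM (vertical axes, each starting at 0) of the 6 type IV collagen chains by strain (horizontal axes); points are libraries, marked by replicate number, and bars are mean ± SD (n = 3). Col4a6 lies at or below 0.36 RPKM in all A/J and BALB/c libraries and at or above 4.06 RPKM in all C57BL/6J libraries, while its partner Col4a5 overlaps between A/J and C57BL/6J.

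Col4a6 and Col4a5 lie head to head on the X chromosome, with 1342 bases between their transcription starts in the RefSeq annotation of GRCm38.p6. The 250 bases before each start are shown because these neighbours share the region from which they are transcribed in opposite directions, yet their levels across strains differed. Capitals mark a CCAAT box (CCAAT or ATTGG) or a GC box (GGGCGG or CCGCCC), each searched on both strands, and each sequence runs 5′ to 3′ on its gene's own strand. Col4a6 is read on the minus strand, chrX:141474077-141474326, and Col4a5 on the plus strand, chrX:141475169-141475418.
Col4a6: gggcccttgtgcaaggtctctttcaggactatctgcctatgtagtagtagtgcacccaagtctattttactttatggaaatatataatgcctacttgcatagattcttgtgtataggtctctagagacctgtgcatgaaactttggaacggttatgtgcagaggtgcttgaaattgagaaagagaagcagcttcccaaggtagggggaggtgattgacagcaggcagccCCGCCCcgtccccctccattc
Col4a5: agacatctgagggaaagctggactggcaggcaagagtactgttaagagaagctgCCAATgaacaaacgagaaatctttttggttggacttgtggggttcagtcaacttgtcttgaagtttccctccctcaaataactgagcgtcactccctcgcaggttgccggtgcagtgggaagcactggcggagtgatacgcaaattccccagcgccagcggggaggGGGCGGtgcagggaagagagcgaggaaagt
The Col4a6 window held 1 GC box, no CCAAT box, 3 CpG and 47.6% GC. The Col4a5 window held 1 GC box, 1 CCAAT box, 10 CpG and 54% GC. Neither held TATAAA. Over 32841 RefSeq windows of this length, 32.7% held a GC box, 33.9% a CCAAT box and 12.4% TATAAA on either strand, and the median window had 6 CpG and 52.4% GC. These windows are the reference sequence, and the strains' own sequences were not analysed here. Reads were aligned to mm9, a C57BL/6J genome, per the submitters' processing notes. Of the 31-base words of the Col4a6 transcript, 0.15% occur in transcripts of other genes.

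A marker list of keratins moved with Col4a6 across the strains, and other lists are given beside it. The 3 keratins of conjunctival and other stratified epithelium on the marker list (Krt15, Krt13 and Krt4) were all listed and none was at 0. They summed to 85.0 to 96.1 RPKM in A/J, 199 to 230 RPKM in BALB/c and 494 to 1383 RPKM in C57BL/6J eyes. Each of the 3 was lower in both albino strains than in C57BL/6J, with log2 changes of -3.26 to -2.68 in A/J and -2.07 to -1.57 in BALB/c (limma adjusted p at most 0.015). Unlike Col4a6, their sums did not overlap between A/J and BALB/c. Of 6 vascular markers, 5 were listed and summed to 44.5 to 52.7 RPKM in A/J, 58.9 to 61.5 RPKM in BALB/c and 64.5 to 66.3 RPKM in C57BL/6J eyes. None of these 5 was called in any comparison (limma adjusted p at least 0.11). Their scaled log2 changes in BALB/c minus C57BL/6J ran from -0.29 to 0.22. The sum of the 5 lens fibre markers was lowest in C57BL/6J, with 77040 to 90117 RPKM in A/J, 92746 to 100501 RPKM in BALB/c and 37478 to 71538 RPKM in C57BL/6J eyes. No lens marker was called in any comparison (limma adjusted p at least 0.083), and Bfsp1 averaged 953, 862 and 862 RPKM in the same order of strains. None of these listed markers was at 0 in any library, and their part in the Col4a6 result was not tested. The sum of the 5 corneal epithelium markers overlapped among the strains, at 4765 to 5960 RPKM in A/J, 4949 to 6039 RPKM in BALB/c and 3832 to 5698 RPKM in C57BL/6J eyes. So did the sum of the 6 fibroblast markers, at 332 to 426, 324 to 377 and 310 to 372 RPKM. Single markers of these lists did not all overlap. All BALB/c libraries of Krt14, Pax6 and Pdgfra lay below all others, and Pdgfrb rose from A/J to BALB/c to C57BL/6J without overlap. No marker of these lists was called in any comparison (limma adjusted p at least 0.1).

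The remaining basement membrane collagens passed no comparison. Col8a2, a chain of the hexagonal lattice of Descemet's membrane, had 45.94, 37.08 and 83.60 RPKM in A/J, 53.71, 55.67 and 57.47 RPKM in BALB/c, and 41.25, 70.59 and 65.05 RPKM in C57BL/6J eyes. Its highest and lowest libraries were both A/J, the highest with 2.25 times the lowest. Col8a1 ranged from 16.57 to 25.12 RPKM over the 9 libraries. Col18a1, the source of endostatin, had 10.86, 9.44 and 18.54 RPKM in A/J, 15.08, 16.54 and 16.18 RPKM in BALB/c, and 11.99, 18.62 and 38.80 RPKM in C57BL/6J eyes, with C57BL/6J 3 apart from all others. Col15a1 (1.94 to 3.26 RPKM) and Col7a1, the anchoring fibril collagen of the epithelial basement membrane (0.85 to 3.11 RPKM), were low throughout.

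None of the 11 laminins and nidogens was called. The medians of their log2 changes were 0.14 in A/J minus C57BL/6J, 0.17 in BALB/c minus C57BL/6J and -0.07 in A/J minus BALB/c, beside -0.01 over all tested genes in each. Nid1, which links laminin to type IV collagen, led the class with 43.68, 40.85 and 39.46 RPKM in A/J, 36.23, 37.41 and 33.22 RPKM in BALB/c, and 32.57, 36.70 and 28.15 RPKM in C57BL/6J eyes. A/J libraries were all above the others in deposited RPKM, but A/J and BALB/c overlapped after scaling. Neither comparison of A/J passed (log2 change 0.46, SE 0.16, adjusted p = 0.21 against C57BL/6J and 0.14, SE 0.16, adjusted p = 0.58 against BALB/c, limma). Lamb1-1, the beta1 chain, had 14.03, 11.78 and 12.58 RPKM in A/J, 11.30, 10.91 and 10.92 RPKM in BALB/c, and 9.25, 10.29 and 10.61 RPKM in C57BL/6J eyes. The order A/J, BALB/c, C57BL/6J held without overlap, the A/J minus C57BL/6J change of 0.44 (SE 0.12) did not pass (limma adjusted p = 0.13), and after GC correction it was 0.51 and passed (limma adjusted p = 0.038). Lamb2, the beta2 chain of the retinal inner limiting membrane and of synapses, had 8.04, 5.93 and 11.26 RPKM in A/J, 8.80, 10.19 and 8.96 RPKM in BALB/c, and 9.55, 11.29 and 13.23 RPKM in C57BL/6J eyes. Lamc3, a gamma chain, had 0.38, 0.30 and 0.74 RPKM in A/J, 0.95, 1.27 and 1.10 RPKM in BALB/c, and 0.62, 0.84 and 1.15 RPKM in C57BL/6J eyes. Its A/J libraries lay below all of BALB/c, and the change did not pass (log2 change -0.8, SE 0.2, limma adjusted p = 0.08), although without A/J 3 it was -0.98 against BALB/c and -0.61 against C57BL/6J and passed both (limma adjusted p = 0.01 and 0.037). Lama5, the alpha chain of most epithelial basement membranes, had 1.80, 1.44 and 4.52 RPKM in A/J, 3.00, 3.33 and 3.25 RPKM in BALB/c, and 2.64, 3.01 and 7.24 RPKM in C57BL/6J eyes, with A/J 3 and C57BL/6J 3 apart from the rest. The other 6 genes of the class ranged from 1.15 RPKM (Lamb3) to 8.7 RPKM (Lamc1).

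Fn1 encodes fibronectin, the adhesive glycoprotein that seeds matrix assembly and binds integrins, and it was higher in A/J eyes than in those of either other strain. It had 20.18, 17.14 and 19.72 RPKM in A/J, 10.08, 10.06 and 9.28 RPKM in BALB/c, and 11.40, 12.14 and 11.20 RPKM in C57BL/6J eyes. All A/J libraries lay above all others. Every BALB/c library lay below every C57BL/6J library in deposited RPKM, but these strains overlapped after scaling. The log2 change was 0.79 in A/J minus C57BL/6J (SE 0.13, adjusted p = 0.013, limma), 0.85 in A/J minus BALB/c (SE 0.13, adjusted p = 0.0096, limma) and -0.06 in BALB/c minus C57BL/6J (SE 0.13, adjusted p = 0.92, limma). The size of the A/J changes held when libraries were left out, at 0.71 to 0.87 and 0.79 to 0.92, but the calls did not. Without A/J 1 the limma adjusted p was 0.082 against C57BL/6J and 0.065 against BALB/c, without C57BL/6J 1 it was 0.052 against C57BL/6J, and without BALB/c 1, 2 or 3 it was 0.055, 0.063 or 0.086 against BALB/c. With A/J 3 as the lone A/J library the changes were 0.8 and 0.86 (limma adjusted p = 0.14 for both), assuming that it varies like the other strains. With only A/J and C57BL/6J fitted, the change was 0.8 (limma adjusted p = 0.11). The vascular sums given above were lowest in A/J, but by list member the gap to BALB/c lay mostly in Rgs5, a pericyte gene with a mean of 16.6 RPKM in A/J and 27.9 RPKM in BALB/c, while Pecam1 averaged 7.53 and 7.48 RPKM. The 3 trabecular meshwork and ciliary body markers, none at 0, summed to 82.3 to 114 RPKM in A/J, 145 to 172 RPKM in BALB/c and 161 to 235 RPKM in C57BL/6J eyes. Of these, Myoc averaged 12.1 RPKM in A/J, 100 RPKM in BALB/c and 58.6 RPKM in C57BL/6J eyes, while Angptl7 averaged 55.5, 41.0 and 47.5 RPKM and Chi3l1 26.6, 19.4 and 84.0 RPKM in the same order of strains. Their part in the Fn1 result was not tested.

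Elastic fibre genes passed no comparison. Eln, elastin, had 6.40, 4.56 and 7.25 RPKM in A/J, 13.14, 10.33 and 11.49 RPKM in BALB/c, and 7.92, 20.48 and 17.05 RPKM in C57BL/6J eyes. A/J libraries were the lowest and overlapped with neither strain, and C57BL/6J 1 lay closest to them. The log2 change was -1.07 in A/J minus C57BL/6J (SE 0.32, limma adjusted p = 0.15) and -0.97 in A/J minus BALB/c (SE 0.32, limma adjusted p = 0.16). Among the alternatives, the A/J minus BALB/c change passed only without A/J 3 (-1.09, limma adjusted p = 0.045) and with only A/J and BALB/c fitted (-0.96, limma adjusted p = 0.041). Without C57BL/6J 1 the A/J minus C57BL/6J change was -1.45 (limma adjusted p = 0.021), and without A/J 3 it was -1.18 (limma adjusted p = 0.041). Without C57BL/6J 2 it was -0.76 (limma adjusted p = 0.29), without A/J 2 -0.89 (0.45), with A/J 3 alone for A/J -0.85 (0.75), without C57BL/6J 3 -0.99 (0.29) and after GC correction -0.76 (0.19). Fbln1, a fibulin of basement membranes and elastic fibres, led the class with 42.16, 35.51 and 49.89 RPKM in A/J, 39.44, 45.47 and 44.28 RPKM in BALB/c, and 54.33, 56.14 and 48.77 RPKM in C57BL/6J eyes. Fbln5, needed for elastic fibre assembly, had 14.11, 15.19 and 9.78 RPKM in A/J, 10.55, 11 and 10.57 RPKM in BALB/c, and 17.39, 13.34 and 11.97 RPKM in C57BL/6J eyes. BALB/c libraries of both fibulins lay below those of C57BL/6J in deposited RPKM but overlapped with them after scaling. The log2 changes of -0.12 and -0.21 did not pass (limma adjusted p = 0.84 and 0.78). Fbln2 lay between 5.31 and 7.58 RPKM in 8 libraries and at 14.25 RPKM in C57BL/6J 3, and Fbln7 between 2.40 and 3.33 RPKM. Fbn1, the fibrillin of the zonule, ranged from 4.74 to 6.89 RPKM over the 9 libraries. Of the 31-base words of its transcript, 19.9% also occur in transcripts of other genes, so its level is uncertain where reads were split between them.

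Col9a1 encodes a chain of type IX collagen, which coats the type II fibrils of the vitreous and cartilage, and it was higher in A/J than in BALB/c eyes. It had 18.02, 17.89 and 25.40 RPKM in A/J, 7.36, 7.01 and 7.50 RPKM in BALB/c, and 10.93, 22.13 and 11.73 RPKM in C57BL/6J eyes. BALB/c libraries were the lowest and close together, A/J libraries lay above them all, and C57BL/6J 2 lay within the A/J range. The log2 change was 1.34 in A/J minus BALB/c (SE 0.28, adjusted p = 0.041, limma), -0.74 in BALB/c minus C57BL/6J (SE 0.28, adjusted p = 0.26, limma) and 0.6 in A/J minus C57BL/6J (SE 0.28, adjusted p = 0.29, limma). The A/J minus BALB/c change stayed at 1.2 to 1.42 when single libraries were left out, but the call was lost without A/J 1 or A/J 2 (limma adjusted p = 0.13 and 0.11), without BALB/c 1, 2 or 3 (0.15, 0.19 and 0.18), and with A/J 3 as the lone A/J library (change 1.62, 0.25). The other chains of the same trimer were not called. Col9a3 had 17.07, 12.67 and 27.29 RPKM in A/J, 21.59, 21.25 and 21.48 RPKM in BALB/c, and 19.28, 27.35 and 26.35 RPKM in C57BL/6J eyes, overlapping in each comparison. Col9a2 had 3.74, 3.96 and 8.15 RPKM in A/J, 4.10, 4.72 and 4.25 RPKM in BALB/c, and 3.04, 5.04 and 5.71 RPKM in C57BL/6J eyes, with A/J 1 and A/J 2 below A/J 3. After GC correction, Col9a2 was 0.65 in A/J minus C57BL/6J and 0.59 in A/J minus BALB/c and passed both (limma adjusted p = 0.017 and 0.032). The ratio of Col9a1 to Col9a3, picked after the values were seen, was 0.931 to 1.41 in A/J eyes, 0.33 to 0.349 in BALB/c eyes and 0.445 to 0.809 in C57BL/6J eyes, so the 3 strains did not overlap.

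Col9a1 is transcribed from alternative starts, the downstream of which gives the short form known from cornea and vitreous, and the gene-level RPKM does not separate them. The 250 bases before each RefSeq start (GRCm38.p6, plus strand) are shown so that the starts can be compared, with a CCAAT box in capitals. Start 1 follows chr1:24177360-24177609 and start 2 follows chr1:24194953-24195202.
Col9a1 start 1: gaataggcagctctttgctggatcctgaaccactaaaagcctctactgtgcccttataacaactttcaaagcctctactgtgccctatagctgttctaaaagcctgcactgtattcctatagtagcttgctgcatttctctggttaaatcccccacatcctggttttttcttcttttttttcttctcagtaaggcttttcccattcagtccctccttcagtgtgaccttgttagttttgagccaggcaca
Col9a1 start 2: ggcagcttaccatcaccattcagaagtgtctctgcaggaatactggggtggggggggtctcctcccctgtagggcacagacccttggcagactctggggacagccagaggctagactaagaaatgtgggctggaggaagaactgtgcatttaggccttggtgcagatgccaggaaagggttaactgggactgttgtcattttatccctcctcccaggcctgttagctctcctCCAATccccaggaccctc
The window of start 1 held none of the 3 motifs and had 43.6% GC, while that of start 2 held 1 CCAAT box and had 56% GC. Neither held a CpG.

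The remaining collagens outside basement membranes were not called. Col1a2 and Col1a1, the chains of type I collagen and the bulk of corneal and scleral fibrils, led the fibrillar class. Col1a2 had 208, 216 and 234 RPKM in A/J, 167, 189 and 184 RPKM in BALB/c, and 163, 271 and 125 RPKM in C57BL/6J eyes. Col1a1 had 136, 124 and 197 RPKM in A/J, 132, 186 and 167 RPKM in BALB/c, and 125, 225 and 92.0 RPKM in C57BL/6J eyes. C57BL/6J 2 was the highest and C57BL/6J 3 the lowest library of both, so the spread within C57BL/6J covered both albino strains. Col3a1, of distensible tissue and vessels, had 69.92 to 83.54 RPKM in A/J, 76.35 to 77.56 RPKM in BALB/c and 53.14 to 90.43 RPKM in C57BL/6J eyes. Col2a1, the main fibrillar collagen of the vitreous and cartilage, had 2.05, 1.85 and 3.75 RPKM in A/J, 2.99, 3.29 and 3.58 RPKM in BALB/c, and 3.79, 5.12 and 16.37 RPKM in C57BL/6J eyes. C57BL/6J libraries lay above all others in deposited RPKM, 1 of them far above, but C57BL/6J 1 overlapped with both strains after scaling. Neither comparison with C57BL/6J passed (log2 change -1.23 in A/J, SE 0.42, adjusted p = 0.2, and -0.81 in BALB/c, SE 0.42, adjusted p = 0.46, limma). Without C57BL/6J 3 the A/J change was -0.7 (limma adjusted p = 0.3), and without A/J 3 it was -1.48 (limma adjusted p = 0.042), while with A/J 3 as the lone A/J library it was -0.74 (limma adjusted p = 0.87). Of the minor fibrillar chains, Col5a2 (9.54 to 15.43 RPKM over the 9 libraries) and Col5a1 (4.35 to 7.94 RPKM), which start type I fibrils, lay above Col11a1 (2.13 to 4.03 RPKM), Col11a2 (0.94 to 4.31 RPKM) and Col27a1 (0.98 to 2.59 RPKM). Col5a3 had 0.86, 1 and 1.3 RPKM in A/J, 1.71, 1.72 and 1.80 RPKM in BALB/c, and 1.47, 2.01 and 2.18 RPKM in C57BL/6J eyes. All A/J libraries of Col5a3 lay below the others, and the log2 change of -0.53 against C57BL/6J (SE 0.15, limma adjusted p = 0.14) and of -0.6 against BALB/c (SE 0.15, limma adjusted p = 0.091) did not pass.

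No other fibril-associated, beaded or membrane collagen was called. Col17a1, a transmembrane collagen of epithelial hemidesmosomes, had 37.07, 34.51 and 51.55 RPKM in A/J, 36.13, 45.04 and 39.70 RPKM in BALB/c, and 35.96, 35.76 and 51.98 RPKM in C57BL/6J eyes. Col6a1 and Col6a2, which form beaded filaments, had 30.72 to 45.58 and 27.20 to 39.63 RPKM in A/J, 33.49 to 39.49 and 27.29 to 35.43 RPKM in BALB/c, and 32.70 to 42.25 and 21.36 to 35.95 RPKM in C57BL/6J eyes. All 3 genes overlapped in each comparison, with log2 changes between -0.07 and 0.42. Col10a1, the collagen of hypertrophic cartilage, had 0.62, 1.09 and 0.86 RPKM in A/J, 2.29, 1.67 and 1.14 RPKM in BALB/c, and 0.93, 1.33 and 1.56 RPKM in C57BL/6J eyes. All its A/J libraries lay below those of BALB/c, and the change did not pass (log2 change -0.73, SE 0.23, limma adjusted p = 0.15). Col14a1, which binds fibril surfaces, had 3.04, 3.05 and 3.94 RPKM in A/J, 4.82, 4.49 and 4.34 RPKM in BALB/c, and 3.16, 4.44 and 3.97 RPKM in C57BL/6J eyes, again with A/J below BALB/c (log2 change -0.46, SE 0.16, limma adjusted p = 0.17). Col16a1 had 5.14, 4.63 and 10.55 RPKM in A/J, 7.99, 8.62 and 8.20 RPKM in BALB/c, and 9.21, 14.00 and 11.19 RPKM in C57BL/6J eyes. A/J 1 and A/J 2 were its lowest libraries, and A/J minus C57BL/6J was -0.68 (SE 0.28, limma adjusted p = 0.27). Col23a1, a transmembrane collagen, lay between 11.80 and 17.15 RPKM, Col12a1 between 6.94 and 10.49 RPKM and Col13a1 between 0.58 and 1.33 RPKM over the 9 libraries.

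**Figure D3:**
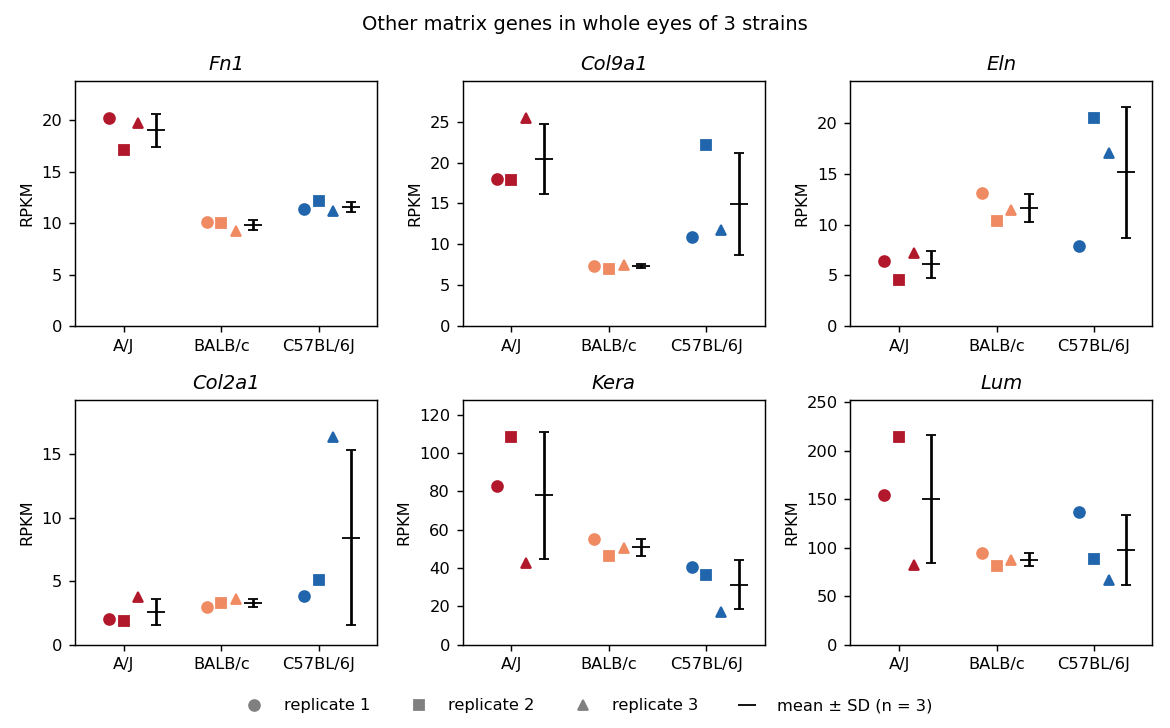
Deposited RPKM (vertical axes, each starting at 0) of fibronectin (Fn1), Col9a1, elastin (Eln), Col2a1, keratocan (Kera) and lumican (Lum) by strain (horizontal axes); points are libraries, marked by replicate number, and bars are mean ± SD (n = 3). A/J libraries of Fn1 lie between 17.14 and 20.18 RPKM, above all others, while Kera and Lum spread widely within A/J.

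The stroma proteoglycans and glycoproteins held the most abundant members and varied widely within A/J and C57BL/6J. Sparc, a collagen-binding matricellular protein, had 980, 1053 and 892 RPKM in A/J, 807, 785 and 826 RPKM in BALB/c, and 969, 1200 and 555 RPKM in C57BL/6J eyes. Dcn, decorin, had 851, 1102 and 543 RPKM in A/J, 590, 481 and 513 RPKM in BALB/c, and 1297, 842 and 622 RPKM in C57BL/6J eyes. The Dcn libraries of BALB/c lay below all of C57BL/6J in deposited RPKM, but these strains overlapped after scaling. The change did not pass (log2 change -0.56, SE 0.33, limma adjusted p = 0.54). Fmod, fibromodulin, had 100.08, 110.58 and 119.51 RPKM in A/J, 101.76, 121.18 and 107.30 RPKM in BALB/c, and 169.65, 181.70 and 102.46 RPKM in C57BL/6J eyes, so C57BL/6J 3 stood with the albino strains. Bgn, biglycan, had 90.21 to 124.79 RPKM in A/J, 93.32 to 113.54 RPKM in BALB/c and 86.48 to 170.16 RPKM in C57BL/6J eyes, and Tgfbi, a secreted adhesion protein of the cornea, had 58.21 to 73.56, 58.58 to 79.12 and 46.77 to 62.29 RPKM in the same order of strains. Both overlapped in each comparison.

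Kera, keratocan, a keratan sulphate proteoglycan made by keratocytes of the corneal stroma, had 82.76, 108.46 and 42.58 RPKM in A/J, 55.03, 46.48 and 50.68 RPKM in BALB/c, and 40.74, 36.28 and 16.81 RPKM in C57BL/6J eyes. All A/J and BALB/c libraries lay above all C57BL/6J libraries, A/J 3 by the least. The log2 change was 1.41 in A/J minus C57BL/6J (SE 0.42, limma adjusted p = 0.15) and 0.96 in BALB/c minus C57BL/6J (SE 0.42, limma adjusted p = 0.36), and neither passed. Without A/J 3 the A/J minus C57BL/6J change was 1.8 (limma adjusted p = 0.019), without C57BL/6J 3 it was 0.96 (limma adjusted p = 0.28), and with A/J 3 alone it was 0.6 (limma adjusted p = 0.88). Lum, lumican, the partner of keratocan in the corneal stroma and one that the naming rule did not pick, had 154, 214 and 82.4 RPKM in A/J, 94.4, 81.4 and 87.3 RPKM in BALB/c, and 137, 88.2 and 66.5 RPKM in C57BL/6J eyes. Lum overlapped in every comparison. The ratio of Kera to Lum, picked after the values were seen, was 0.506 to 0.537 in A/J eyes, 0.571 to 0.583 in BALB/c eyes and 0.253 to 0.411 in C57BL/6J eyes, a span within A/J far narrower than that of either gene. Kera, Lum and Dcn are neighbours on chromosome 10. Ogn, osteoglycin, had 93.75, 118.74 and 31.91 RPKM in A/J, 36.63, 27.13 and 25.45 RPKM in BALB/c, and 64.39, 48.75 and 23.99 RPKM in C57BL/6J eyes, with A/J 3 near the BALB/c libraries and the other A/J libraries above every other one.

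The differences among A/J libraries followed GC content. The members' median GC was 53.6% beside 50.1% over all genes with a value, with a median of 58.0% for fibrillar collagens and 46.6% for stroma proteoglycans and glycoproteins. Across the 60 tested members, the log2 difference between the mean of A/J 1 and A/J 2 and A/J 3 had a Spearman correlation of -0.79 and a Pearson r of -0.83 with GC content, beside a Spearman correlation of -0.7 over 12695 genes; these points share the same libraries. The class median of this difference was 0.66 for stroma proteoglycans and glycoproteins, of which 7 of 8 were above 0, and -0.66 for basement membrane collagens, -0.41 for fibrillar collagens, -0.4 for other collagens, -0.27 for laminins and nidogens and -0.04 for fibrillins and their class. The median of C57BL/6J 3 minus the mean of C57BL/6J 1 and 2 was -1.02 for stroma proteoglycans and glycoproteins and 0.07 for basement membrane collagens. After GC correction, Kera was at 1.09 in A/J minus C57BL/6J (limma adjusted p = 0.075), Fn1 at 0.91 (limma adjusted p = 0.0045), and Col9a1 at 1.43 in A/J minus BALB/c (limma adjusted p = 0.023).

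**Figure D4:**
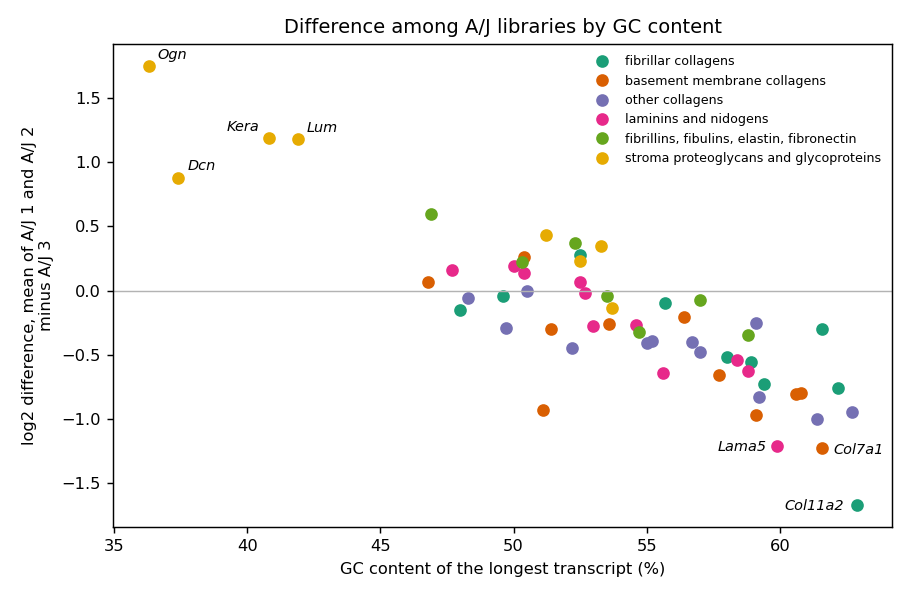
Log2 difference between the mean of A/J 1 and A/J 2 and A/J 3 (vertical axis) against the GC content of the longest transcript in percent (horizontal axis) for the 59 tested members with a class, coloured by class. Ogn, Kera, Lum and Dcn, the most GC-poor members, lie highest, and Col11a2, Col7a1 and Lama5, GC-rich, lie lowest, with a Spearman correlation of -0.79 over all 60 tested members.

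**Figure D5:**
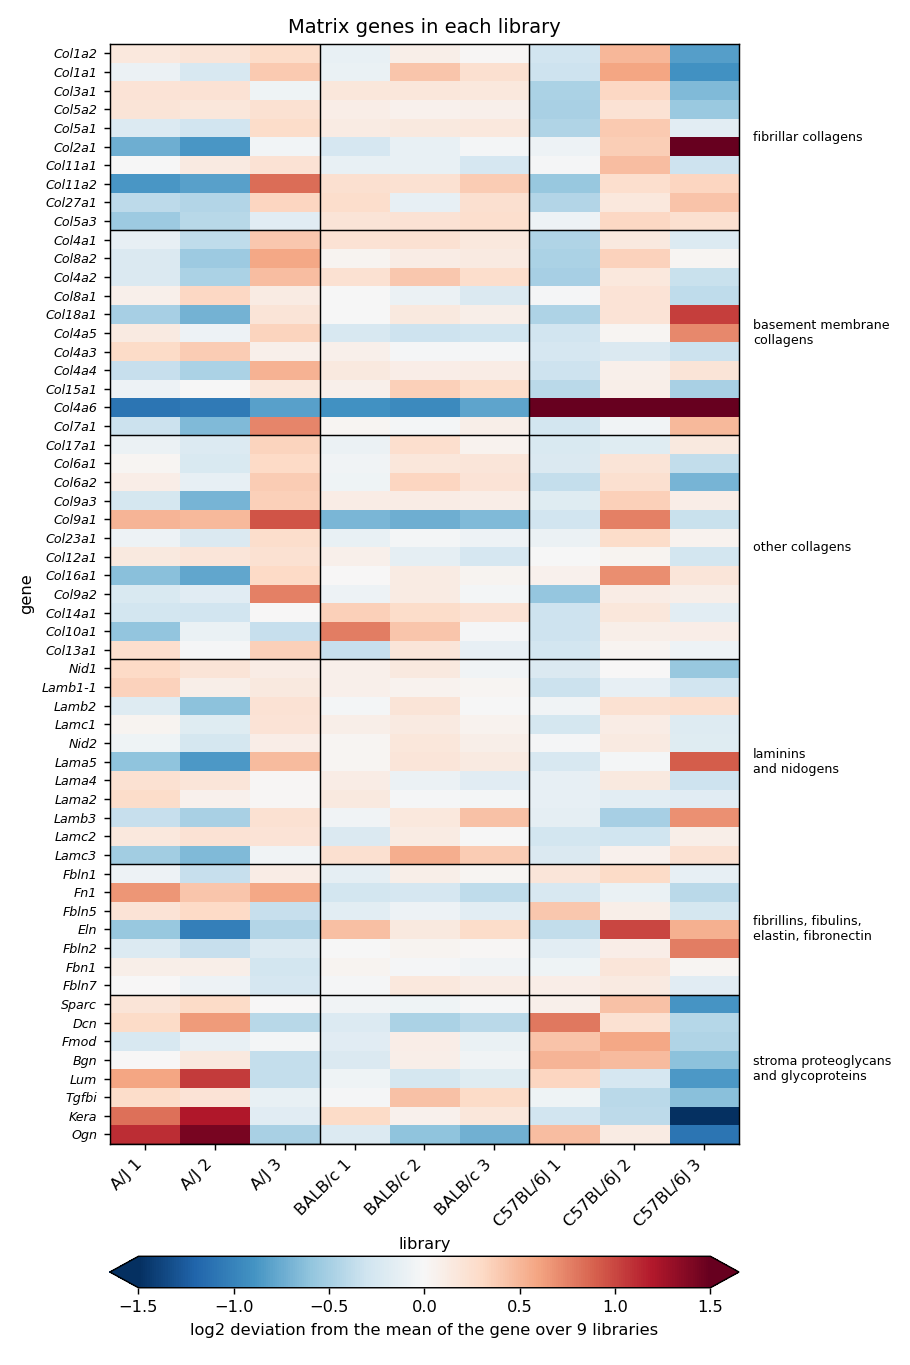
Log2 deviation of each tested member with a class (rows, by class and falling mean RPKM) from its own mean over the 9 libraries (columns), with red above and blue below the mean and colours capped at 1.5. Col4a6 is above its mean in the 3 C57BL/6J libraries alone and Fn1 in the 3 A/J libraries alone, while Ogn, Kera and Lum are high in A/J 1 and A/J 2 and low in C57BL/6J 3.

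Libraries of 2 strains did not overlap for 7 members with a positive and 6 with a negative change in A/J minus C57BL/6J, or 21.7% of 60 beside 16.3% of all genes. Those of BALB/c minus C57BL/6J were 3 and 12, or 25% beside 33.4% of all genes, and those of A/J minus BALB/c were 13 and 6, or 31.7% beside 33.1% of all genes. Overlap was judged on deposited RPKM, on which the median of all genes shifted by -0.11, -0.17 and 0.05 in these comparisons. Over all genes, 680 were higher and 1421 lower in A/J minus C57BL/6J, and 775 and 3545 in BALB/c minus C57BL/6J. In A/J minus BALB/c they were 3014 and 1263. At an unadjusted p under 0.05, the members numbered 14, 7 and 8 in the same order of comparisons, beside 17.5%, 13.8% and 20.9% of all genes. The median log2 change over the members was -0.01, 0.08 and -0.07, beside -0.01 over all genes in each.

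Genes that process, bind or degrade the matrix were described from lists outside the rule. Of 31 genes for collagen processing and crosslinking, such as prolyl and lysyl hydroxylases and lysyl oxidases, 27 were tested. None was called in any comparison by limma, beside 2.69% of all genes in A/J minus C57BL/6J, 3.09% in BALB/c minus C57BL/6J and 2.48% in A/J minus BALB/c. At an unadjusted limma p under 0.05 the list held 5, 6 and 7 of 27 in the same order, beside 17.5%, 13.8% and 20.9% of all genes. Of 23 matrix receptors tested, 1 was called in A/J minus C57BL/6J (4.35%, beside 2.69% of all genes), 1 in BALB/c minus C57BL/6J (4.35%, beside 3.09%) and 0 in A/J minus BALB/c, beside 2.48%. In A/J minus BALB/c, 6 of the 23 had an unadjusted limma p under 0.05, beside 20.9% of all genes. Ddr2, a receptor tyrosine kinase for fibrillar collagen, had 3.55, 3.19 and 3.34 RPKM in A/J, 4.86, 4.23 and 3.81 RPKM in BALB/c, and 6.44, 5.99 and 5.90 RPKM in C57BL/6J eyes, and was lower in A/J than in C57BL/6J eyes (log2 change -0.68, SE 0.14, limma adjusted p = 0.035). Sdc1, an epithelial syndecan, had 61.1, 59.6 and 66.9 RPKM in A/J, 74.6, 99.1 and 95.7 RPKM in BALB/c, and 61.6, 56.2 and 73.8 RPKM in C57BL/6J eyes. It was higher in BALB/c than in C57BL/6J eyes, with a log2 change of 0.66 (SE 0.14, limma adjusted p = 0.041).

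Of 21 matrix proteases and inhibitors tested, 2 were called in A/J minus C57BL/6J, 1 in BALB/c minus C57BL/6J and 1 in A/J minus BALB/c, all lower. These were 9.52%, 4.76% and 4.76% of the list. Over all genes, 2.69%, 3.09% and 2.48% were called in either direction, and 1.62%, 1.15% and 1.9% were called lower. Mmp14, a membrane-bound collagenase that activates progelatinase A, had 14.11, 13.19 and 14.38 RPKM in A/J, 23.35, 26.98 and 28.65 RPKM in BALB/c, and 25.53, 28.36 and 26.71 RPKM in C57BL/6J eyes. A/J libraries stood apart from both other strains, with a log2 change of -0.82 against C57BL/6J (SE 0.13, limma adjusted p = 0.011) and -0.96 against BALB/c (SE 0.13, limma adjusted p = 0.006). Mmp9, gelatinase B, whose substrates include type IV collagen, had 1.25, 1.41 and 2.27 RPKM in A/J, 1.72, 1.66 and 1.55 RPKM in BALB/c, and 3.75, 3.84 and 4.11 RPKM in C57BL/6J eyes. It was lower in both albino strains than in C57BL/6J eyes (log2 change -0.97 in A/J, limma adjusted p = 0.017, and -0.89 in BALB/c, limma adjusted p = 0.025; SE 0.17 each).

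Of 48 other matrix genes tested, 3 were called in A/J minus C57BL/6J, 3 in BALB/c minus C57BL/6J, all lower, and 0 in A/J minus BALB/c, beside 2.48% of all genes there. In A/J minus BALB/c, 12 of the 48 had an unadjusted limma p under 0.05, beside 20.9% of all genes. The calls were 6.25% of the list in both comparisons with C57BL/6J. Over all genes, 2.69% and 3.09% were called in either direction there, and 1.62% and 1.15% were called lower. Each share rests on at most 3 genes. Chad, chondroadherin, a leucine-rich protein that binds cartilage collagen, had 4.74, 4.85 and 4.98 RPKM in A/J, 8.16, 10.21 and 7.74 RPKM in BALB/c, and 48.57, 39.68 and 23.32 RPKM in C57BL/6J eyes. Comp, a thrombospondin family protein of cartilage and tendon that binds collagens I, II and IX, had 2.96, 2.44 and 4.72 RPKM in A/J, 1.74, 1.64 and 1.69 RPKM in BALB/c, and 16.31, 14.41 and 11.86 RPKM in C57BL/6J eyes. Both were lower in the albino strains in every library. The log2 change of Chad was -2.64 in A/J (SE 0.28, limma adjusted p = 0.00092) and -1.81 in BALB/c (SE 0.28, limma adjusted p = 0.008), and that of Comp was -1.85 in A/J (SE 0.22, limma adjusted p = 0.0023) and -2.58 in BALB/c (SE 0.22, limma adjusted p = 0.00031), each against C57BL/6J. Of 5 cartilage and bone markers, 1 was listed, Matn3, with 2.02 to 4.12 RPKM in A/J, 1.86 to 2.11 RPKM in BALB/c and 2.54 to 4.47 RPKM in C57BL/6J eyes. Ecm1, a secreted glycoprotein with 11.89 to 14.98 RPKM in A/J and 19.13 to 25.28 RPKM in C57BL/6J eyes, was lower in A/J (log2 change -0.68, SE 0.14, limma adjusted p = 0.033) than in C57BL/6J eyes. Thbs1, thrombospondin, with 14.55 to 19.13 RPKM in BALB/c and 29.50 to 31.61 RPKM in C57BL/6J eyes, was lower in BALB/c than in C57BL/6J eyes (log2 change -0.62, SE 0.14, limma adjusted p = 0.048). With A/J 3 as the lone A/J library, Chad was the only one of the 6 genes of these lists called in A/J minus C57BL/6J to stay called (log2 change -2.65, limma adjusted p = 0.047). Comp was then at -1.42 (0.054), Mmp14 at -0.81 (0.17), Mmp9 at -0.61 (0.22), Ddr2 at -0.72 (0.23) and Ecm1 at -0.54 (0.42). Mmp14 was at -0.96 against BALB/c (0.13). Sdc1 and Thbs1 were then at 0.67 (0.075) and -0.62 (0.068) in BALB/c minus C57BL/6J. Without C57BL/6J 3, Ecm1 was at -0.68 in A/J (limma adjusted p = 0.065) and Thbs1 at -0.66 in BALB/c (limma adjusted p = 0.057), and the other calls held.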

How the data were processed

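RNA of whole eyes from 3 strains was profiled in 9 libraries. The authors deposited 1 table of RPKM values per library, made with CASAVA 1.7 and GenomeStudio on mm9 per the submitters' processing notes. Read length, strand and the counting rule were not given in the sources used here. No unit is named in the tables: RPKM was inferred because RPKM times transcript length, summed over genes, should total a fixed number, and the sums were 108.5% to 111.7% of it in 8 libraries and 126.6% in C57BL/6J 3, and for lack of counts no depth, interval or count test was possible.

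RPKM was scaled by median-of-ratios size factors (0.9345 to 1.162), and genes with at least 1 RPKM in at least 3 libraries were kept (12920 of 13089). Strains were compared in all 9 libraries together with limma 3.58.1 in R 4.3.3 on log2(value + 0.5), with a trended and robust prior, two-sided tests and Benjamini-Hochberg adjustment over all genes kept. The procedure was tested on simulated data. Python 3.11.15, pandas 2.3.3 and numpy 2.4.6 handled the tables. GC content and words of 31 bases shared between genes came from GENCODE transcripts of GRCm38, and a lowess of span 0.3 gave the GC correction. Promoter windows came from RefSeq (GRCm38.p6), which had an entry for 44 of the 61 members.

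A list of markers is not reported here. The members and gene lists were chosen with earlier results of these data known. Genes were named if called in any test, if among the 3 most abundant of their class, or if the libraries of 2 strains did not overlap and differed by a log2 change of at least 1; from the other lists, up to 3 called genes per comparison. Lum, Col4a3, Col4a4, Col4a5, Col9a2, Col9a3, Col10a1, Col14a1, Col16a1, Col5a3, Col18a1, Lama5, Lamc3 and Ogn were added after their values were seen. Alternatives varied the pseudocount, filter, scaling, GC correction, replicate block, the strains fitted and the libraries used.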

Additional observations from a re-analysis of the deposited data

How the results depend on the processing

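The Col4a6 difference from C57BL/6J kept its direction and its call under each alternative in which it was tested, between -3.85 (pseudocount of 0.1) and -2.26 (pseudocount of 1) in A/J and between -3.62 and -2.2 in BALB/c. With a C57BL/6J library left out it missed the minimum of 1 RPKM in 3 libraries and had no test, so that fits with no minimum were added after seeing the data. No called change turned its sign, but medians over the members did, as given below.

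The count of members called depended more on the libraries. In A/J minus C57BL/6J it was 2, against 5 with GC correction (Col4a6, Fn1, Col9a2, Col4a3 and Lamb1-1), 5 with the replicate block and GC correction, 1 with only the 2 strains fitted, 1 without A/J 1 and A/J 2, and 1 to 16 with single libraries left out. In BALB/c minus C57BL/6J it was 1, and 0 to 1 with single libraries left out, where 0 reflects the missing test of Col4a6. In A/J minus BALB/c it was 2, against 0 without A/J 1 and A/J 2 and 0 to 14 with single libraries left out. The F test called 2, against 4 with GC correction, 5 with the block and GC correction, 1 without A/J 1 and A/J 2, and 1 to 14 with single libraries left out. The highest of these counts, 16, 14 and 14, came without A/J 3, when 3630 genes in all were called in A/J minus C57BL/6J beside 348 with every library. The cause was not tested. Among the members described above, Col5a3, Col16a1, Lum and Ogn were then called in both comparisons of A/J, and Col14a1 in A/J minus BALB/c.

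The median log2 change of the members in A/J minus C57BL/6J was -0.01, against 0.15 with GC correction, 0.15 with the block as well, 0.19 without A/J 1 and A/J 2, and -0.06 to 0.17 with single libraries left out. In BALB/c minus C57BL/6J it was 0.08, against -0.08 on the deposited scale, on which the median of all genes shifted by -0.17, and 0.01 to 0.14 with single libraries left out. In A/J minus BALB/c it was -0.07, against 0.08 with GC correction, 0.08 with the block as well, 0.1 without A/J 1 and A/J 2, and -0.19 to -0.01 with single libraries left out.

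Of the 4 lists of other matrix genes, 6 genes were called in A/J minus C57BL/6J, against 2 with only the 2 strains fitted, 1 without A/J 1 and A/J 2, and 2 to 32 with single libraries left out. In BALB/c minus C57BL/6J 5 were called, against 3 with only the 2 strains, 3 without A/J 1 and A/J 2, and 1 to 6 with single libraries left out. In A/J minus BALB/c 1 was called, against 6 with GC correction, 3 with the block and GC correction, 4 with only the 2 strains, 0 without A/J 1 and A/J 2, and 0 to 36 with single libraries left out. The F test called 5, against 9 on the deposited scale, 13 with GC correction, 8 with the block and GC correction, 3 without A/J 1 and A/J 2, and 3 to 35 with single libraries left out.

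Same-numbered libraries of 2 strains deviated from their strain means with correlations of -0.51 to 0.54. A/J 2 correlated best with BALB/c 1 and C57BL/6J 1 (0.6 each), so the numbers were not taken to pair the libraries. The replicate block alone changed no call among the named members except Kera in A/J minus C57BL/6J (log2 change 1.41, limma adjusted p = 0.045), which brought the members called there to 3. Depth is unknown, so how precise the values of low genes such as Col4a6 in A/J and BALB/c are cannot be stated.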
